A study of Mus musculus with 4 samples.

Results

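The 37 genes described here are those of hepatic stellate cells and of the extracellular matrix of the liver: collagen chains, proteoglycans, matrix glycoproteins, matrix-remodelling enzymes and their inhibitors, profibrotic growth factors and receptors, contractile genes and markers of the resting stellate cell. They were set as a list of gene names, with no cut on a measured value but with earlier results of these data known, out of the 46603 Ensembl genes counted in the series. All 37 were in the count table, and 35 of them were among the 13001 genes with enough counts to be tested. RNA-seq of whole liver was performed on 4 male HuR flox/flox mice on the C57BL/6J background. Mice 1 and 2, the control group, were injected into the tail vein with AAV8-TBGP-GFP. Mice 3 and 4, labelled HuR hKO, received AAV8-TBGP-Cre, in which the thyroxine-binding globulin promoter drives Cre recombinase in hepatocytes. All 4 mice carried the floxed alleles and had 4 weeks of WDSW, a Western diet (42% of kcal from fat, 0.1% cholesterol) given with a drink of fructose and glucose. There was no group on a normal diet, and ages were not given in the sources used here. Because the vector acts in hepatocytes, HuR in stellate cells, fibroblasts and endothelial cells was not the target in either group.

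Hepatic stellate cells lie between hepatocytes and the sinusoidal endothelium, where they store vitamin A in their resting state. In a chronically injured liver they lose their retinoid droplets, take on a contractile, myofibroblast-like form under TGF-beta and PDGF signals, and become a main source of the fibrillar collagens that make up scar tissue. HuR, encoded by Elavl1, is an RNA-binding protein that regulates the stability and translation of many mRNAs. Some matrix genes are also made outside stellate cells: hepatocytes secrete fibronectin and collagen XVIII, endothelial cells contribute type IV collagen, and vascular smooth muscle is rich in alpha-smooth muscle actin and desmin. In RNA of whole liver, a lower value can come from fewer cells of a type or from less RNA per cell, and these cannot be told apart.

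The libraries held between 13032095 and 19715577 counts on genes, with the largest total in mouse 4. The targeted gene did not follow the labels. Elavl1 (chromosome 8, 4285382 to 4325413, GRCm38) had 28.4 and 25.9 CPM (counts scaled to the size of each library) in control mice 1 and 2, and 37.7 and 34.4 CPM in the libraries labelled HuR hKO, mice 3 and 4. Its log2 fold change was 0.41 (SE 0.135, unadjusted p = 0.0160, adjusted p = 0.545 by the edgeR quasi-likelihood test with Benjamini-Hochberg adjustment), so it was not lower in either library labelled HuR hKO. These counts cover the whole gene and do not separate the floxed part, and its exons overlap those of Ccl25 on the other strand. Every direction below therefore follows the labels, as mice 3 and 4 against mice 1 and 2. Were the labels of the groups exchanged, the sign of every fold change would turn, and whether they were was not tested. The tissue was liver by its markers: 20 hepatocyte genes summed to between 106740 and 120586 CPM. Of 16 stellate cell genes that are not among the 37, 15 had enough counts to be tested.

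In the 4 libraries, the matrix genes had somewhat higher levels in the livers labelled HuR hKO, and no member passed the test after adjustment for the number of genes. Of the 35 members tested, 32 had a fitted log2 fold change above 0, against 50.3% of all genes tested. Their median log2 fold change was 0.23, against 0.002 over all genes tested. An unadjusted p under 0.05 with a higher level was found for 6 members, Sparc, Col4a1, Col3a1, Col14a1, Col1a1 and Col18a1, which is 17.1% of the members tested beside 4.04% of all genes. No member was lower at that threshold, beside 3.39% of all genes. Both libraries labelled HuR hKO lay above both control libraries for 15 of the 35 members, or 42.9%, beside 19.3% of all genes. The reverse order was found for none of them, beside 18.8% of all genes. Adjusted p-values of the members ran from 0.373 to 0.995 in the edgeR quasi-likelihood test, while 2 genes in the whole table, or 0.0154%, were higher and 1 gene, or 0.00769%, was lower at an adjusted p under 0.05. No member reached a fold change of 1.8 with an unadjusted p under 0.05, beside 1.21% of all genes in the higher direction and 0.915% in the lower. With 2 mice against 2, an exact two-sided permutation test of a single gene cannot give a p under 0.33.

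The difference rested in part on single libraries. Mouse 4 held the highest value for 21 of the 35 members and the lowest for none of them, whereas it held the highest value for 26.7% and the lowest for 26.2% of all genes. Control mouse 2 held the lowest value for 18 members, beside 24.1% of all genes, and control mouse 1 for 14, beside 28.3%. Without mouse 4 the median over the members was 0.09, 25 had a log2 fold change above 0, and 2 (Sparc and Col4a1) were higher at an unadjusted p under 0.05, beside 1.93% of all genes in that fit. Without control mouse 1, which stood apart for some smooth muscle and bile duct genes as described below, the median was 0.29. In that fit 6 members were again higher at an unadjusted p under 0.05, beside 3.5% of all genes, but 3 of them were others: Col3a1, Col4a1 and Sparc remained, and Col4a2, Nid1 and Lrat took the place of Col1a1, Col14a1 and Col18a1. The summed level of the 37 genes was 2810 and 2613 CPM in the control mice, and 3019 and 3423 CPM in the mice labelled HuR hKO. Most of this sum came from Fn1, Col18a1 and Ecm1, and without these 3 the sums were 618 and 581 CPM against 666 and 772 CPM.

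**Figure D1:**
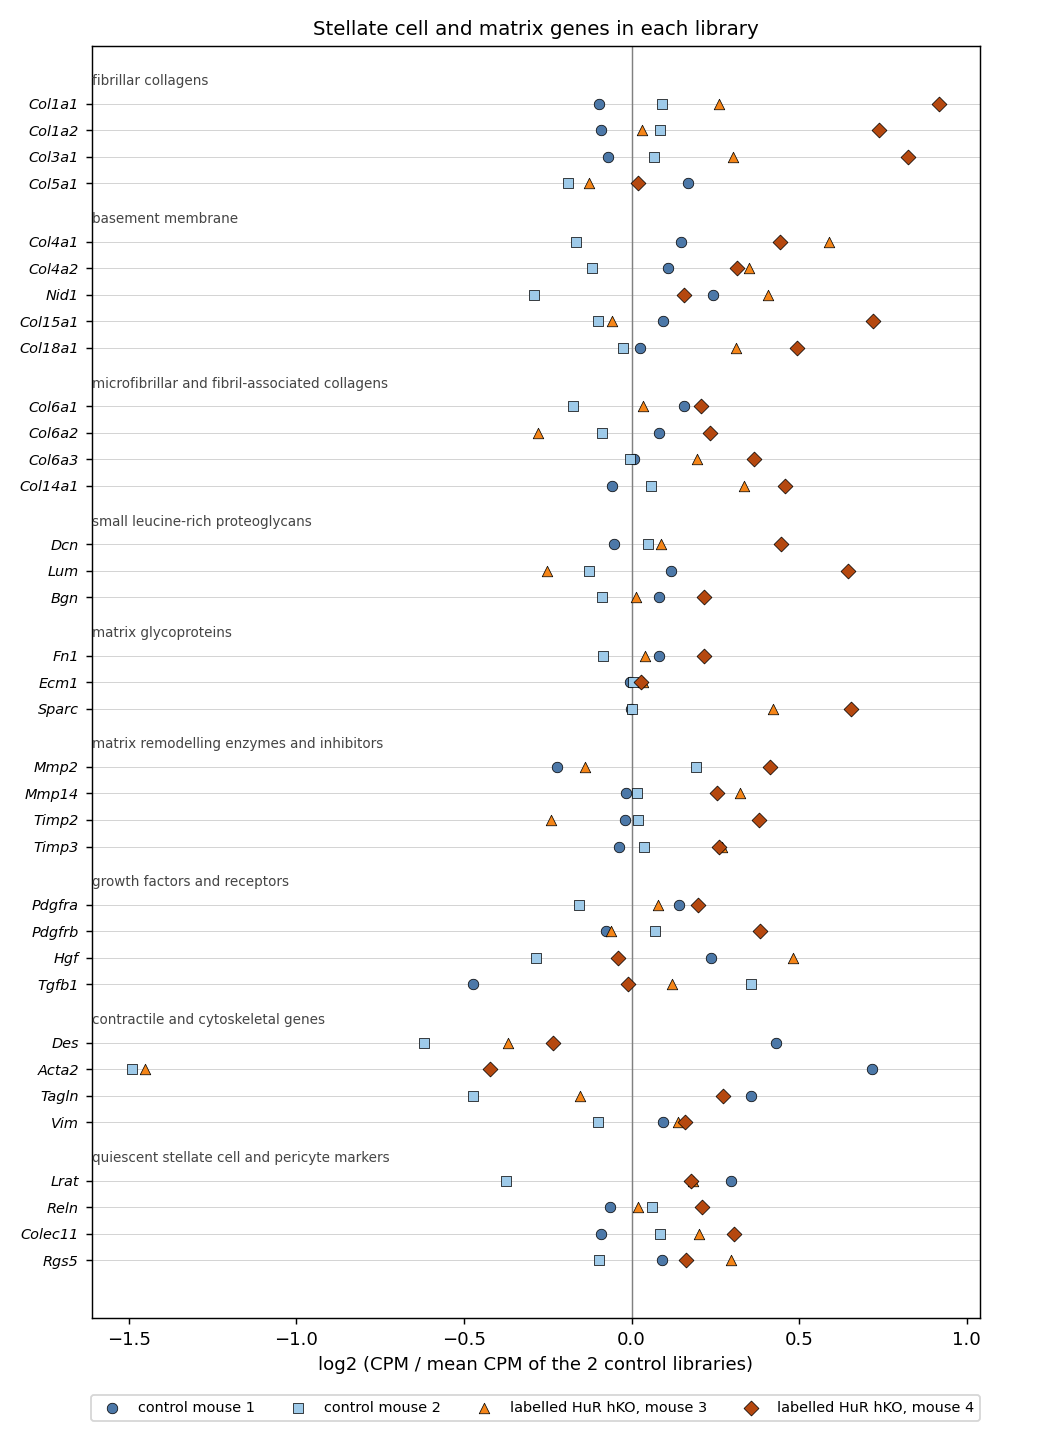
Each row is 1 of the 35 genes tested, grouped by role, and each symbol is 1 library, placed by its log2 ratio of CPM to the mean CPM of the 2 control libraries. Mouse 4 lay farthest to the right for Col1a1, Col1a2 and Col3a1, both mice labelled HuR hKO lay to the right of both controls for Sparc and Col4a1, and control mouse 1 stood alone on the right for Acta2 and Des.

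Sequence upstream of the start was looked at for the genes whose RNA is described below. RefSeq windows (GRCm38.p6) were available for 28 of the 37 members, and the 250 bases before the start were searched on both strands for short motifs. The window of Col3a1 is shown because it is the fibrillar collagen with the highest level per kb. Among the 28 members with a window, Col3a1 shared the motif TATAAA with Ecm1 and Vim only. The 3 genes stand beside 12.4% of all RefSeq windows with this motif. The match lay 117 to 112 bases before the start in Col3a1, 27 to 22 in Ecm1 and 32 to 27 in Vim. The window of Col3a1 lies at chr1:45311288-45311537 on the plus strand, and the capitals mark TATAAA:

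Col3a1: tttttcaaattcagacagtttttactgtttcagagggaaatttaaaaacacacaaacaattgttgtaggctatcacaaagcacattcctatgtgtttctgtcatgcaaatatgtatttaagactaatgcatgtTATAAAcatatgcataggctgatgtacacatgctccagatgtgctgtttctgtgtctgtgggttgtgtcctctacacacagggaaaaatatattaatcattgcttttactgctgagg

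Acta2 is shown because it had the largest error of any member and is the usual marker of the contractile stellate cell. Its window held 2 matches to the CArG box, the motif bound by serum response factor, each with 1 mismatch in the inner bases. Matches of that kind were also found before Col1a2, Col6a3, Lrat, Mmp14 and Timp3, which makes 6 of 28 members beside 8.59% of all windows. The exact CArG box was found before none of the 28, beside 1.47% of all windows. The RefSeq start of Acta2 lies 217 bases downstream of the start of the GENCODE gene whose coordinates are given below, so both sites, which precede the RefSeq start, lie inside the GENCODE gene. They are printed on the minus strand, at chr19:34255438-34255467 for the first and chr19:34255388-34255417 for the second, with the match in capitals:

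Acta2 site 1: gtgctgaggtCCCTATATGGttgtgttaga
Acta2 site 2: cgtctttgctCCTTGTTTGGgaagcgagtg

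The other motifs searched were the CCAAT box (CCAAT, before 11 of 28 members and in 33.9% of all windows), the GC box (GGGCGG, 16 of 28 and 32.7%) and the AP-1 site (TGANTCA, 2 of 28 and 6.75%). A match of letters describes the window and was not measured as binding.

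On the scale of CPM per kb of transcript, which allows genes of unequal length to be compared, Col18a1 (a mean of 179 over the 4 libraries) and Fn1 (143) had the highest levels, followed by Ecm1 (60.9), Bgn (27.7), Dcn and Sparc (both 20.5) and Colec11 (18.0). Col18a1 lay above Fn1 in each of the 4 libraries, while Dcn and Sparc changed places between libraries and were not separated beyond their spread. The fibrillar collagens were lower, with 5.68 for Col3a1, 3.02 for Col1a2, 2.12 for Col1a1 and 0.846 for Col5a1. Col3a1 was between 2.55 and 2.80 times as high as Col1a1 in every library. The lowest members were Timp1 (0.238) and Lox (0.0625), which had at most 10 counts in any library.

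**Figure D2:**
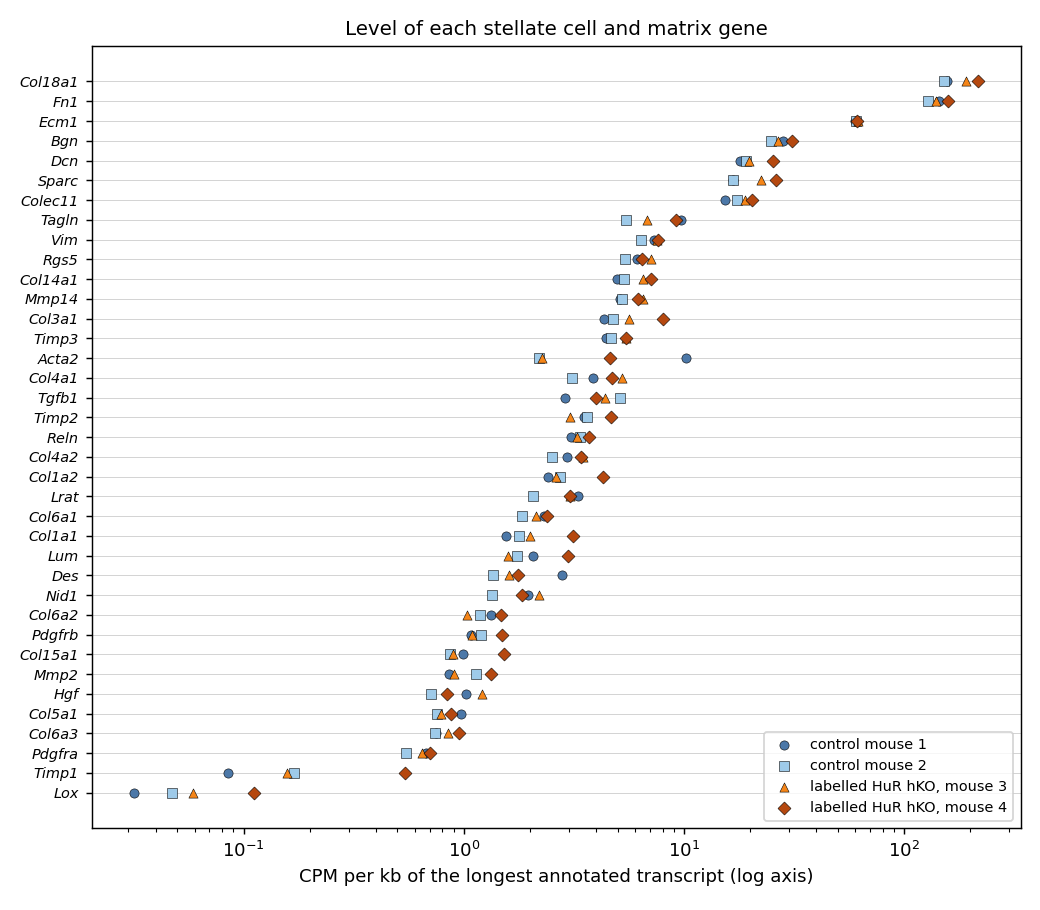
Level of each member as CPM per kb of transcript on a log axis, with 1 symbol per library. Col18a1 and Fn1 lay above 100 in all 4 libraries, the fibrillar collagens lay between 0.755 and 8.04, and Timp1 and Lox lay at the bottom.

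Among the fibrillar collagens, which form the banded fibres of scar tissue, Col1a1 and Col3a1 were higher in both libraries labelled HuR hKO, and Col1a2 and Col5a1 overlapped between the groups. Col1a1 (chromosome 11, 94936224 to 94953042), the alpha-1 chain of type I collagen, had 9.26 and 10.5 CPM in control mice and 11.9 and 18.7 CPM in mice 3 and 4. Its groups did not overlap, but most of the difference was in mouse 4. The log2 fold change was 0.63 (SE 0.233, unadjusted p = 0.0258, adjusted p = 0.580 by edgeR's quasi-likelihood test), and it was 0.26 without mouse 4. Col3a1 (chromosome 1, 45311538 to 45349706), the chain of type III collagen, had 24.1 and 26.5 CPM in control mice and 31.2 and 44.8 CPM in mice 3 and 4. Again no control library reached either of the others, and mouse 4 was the highest. Its log2 fold change was 0.59 (SE 0.186, unadjusted p = 0.0128, adjusted p = 0.522), and 0.30 without mouse 4. Col1a2, the partner chain of Col1a1, had 12.9 and 14.6 CPM in control mice, and 14.1 and 23.0 CPM in mice 3 and 4. Mouse 3 fell between the 2 controls, and the log2 fold change of 0.43 (SE 0.232, unadjusted p = 0.0981) was 0.032 without mouse 4. On the scale per kb, the ratio of Col1a1 to Col1a2 was 0.645 and 0.649 in the control mice, and 0.759 and 0.733 in mice 3 and 4. In mice 1 to 4 these ratios rest on 123, 141, 170 and 352 counts of Col1a1. Col1a2 had 172, 196, 202 and 433 counts. The counting error of the ratios was not estimated, so a difference between the groups is not read from them. Col5a1, a chain of type V collagen that sits inside type I fibrils, had 8.13 and 6.35 CPM in control mice and 6.63 and 7.33 CPM in the others, with a log2 fold change of -0.050 (SE 0.216).

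Basement membrane components were above 0 for all 5 genes, and for Col4a1, Col4a2 and Nid1 mouse 3 was higher than mouse 4. Col4a1 (chromosome 8, 11198423 to 11312826, minus strand), which encodes the main chain of type IV collagen, had 25.4 and 20.5 CPM in control mice, and 34.5 and 31.2 CPM in mice 3 and 4. The groups did not overlap, the log2 fold change was 0.52 (SE 0.153, unadjusted p = 0.00954, adjusted p = 0.480 by edgeR's quasi-likelihood test), and it lay between 0.37 and 0.67 when each mouse was left out. Its partner chain Col4a2 (chromosome 8, 11312805 to 11449287, plus strand) had 19.0 and 16.3 CPM in control mice and 22.5 and 22.0 CPM in mice 3 and 4. For Col4a2 the groups were apart too, with a log2 fold change of 0.33 (SE 0.147, unadjusted p = 0.0528). The pair is arranged head to head, and the annotated starts overlap by 22 bases. The use of strand in counting was not given in the sources used here, so reads within those bases cannot be assigned to one gene or the other.

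Col18a1 (chromosome 10, 77052178 to 77166548), the type XVIII collagen from which endostatin is released, had 878 and 848 CPM in control mice and 1071 and 1216 CPM in mice 3 and 4. Neither control reached mouse 3 or 4, with a log2 fold change of 0.41 (SE 0.153, unadjusted p = 0.0285, adjusted p = 0.591), and between 0.31 and 0.48 when each mouse was left out. Nid1, which links laminin to type IV collagen, had 11.9 and 8.21 CPM against 13.3 and 11.2 CPM, so that mouse 4 fell between the controls. Col15a1 had 5.12 and 4.48 CPM in control mice, 4.604 CPM in mouse 3 and 7.91 CPM in mouse 4. Its log2 fold change was 0.40 (SE 0.296) and -0.058 without mouse 4.

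**Figure D3:**
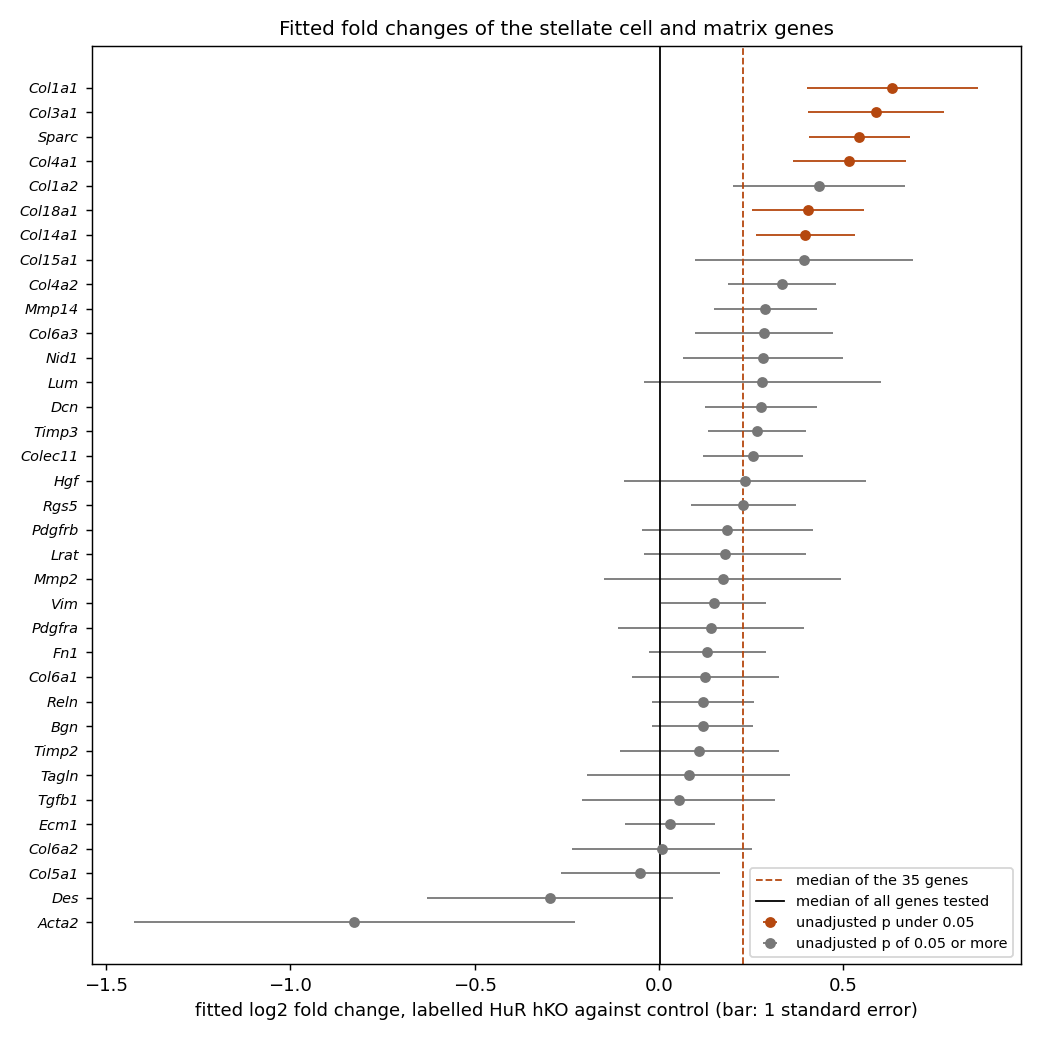
Fitted log2 fold change of each of the 35 genes tested (libraries labelled HuR hKO minus control), with bars of 1 standard error, in order of size. Of the 35 points, 32 lay to the right of 0, with Col1a1 at 0.63, Sparc at 0.54 and Acta2 on the far left at -0.83.

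The collagens of beaded microfibrils and of fibril surfaces were less uniform. Col14a1 (chromosome 15, 55307750 to 55520803), a collagen that binds to the outside of fibrils, had 31.9 and 34.6 CPM in control mice and 41.9 and 45.6 CPM in mice 3 and 4. The groups were separate, the log2 fold change was 0.40 (SE 0.133, unadjusted p = 0.0172, adjusted p = 0.555 by edgeR's quasi-likelihood test), and each mouse could be left out with a value between 0.33 and 0.46. The 3 chains of type VI collagen had smaller differences. Col6a3 had 7.53 and 7.47 CPM against 8.58 and 9.66 CPM (log2 fold change 0.29, SE 0.187). Col6a1 and Col6a2 overlapped between the groups, with log2 fold changes of 0.13 (SE 0.199) and 0.0084 (SE 0.245).

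Of the small leucine-rich proteoglycans, which bind collagen fibrils and set their spacing, none of the 3 had an unadjusted p under 0.05. Dcn (decorin) had 84.1 and 90.2 CPM in control mice and 92.6 and 118.5 CPM in mice 3 and 4. Mouse 3 was close to control mouse 2, and the log2 fold change of 0.28 (SE 0.152, unadjusted p = 0.105) was 0.088 without mouse 4. Lum (lumican) and Bgn (biglycan) overlapped between the groups, with log2 fold changes of 0.28 (SE 0.321) and 0.12 (SE 0.138).

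Sparc had the smallest unadjusted p of the members. It encodes osteonectin, a collagen-binding glycoprotein of remodelling matrix (chromosome 11, 55394500 to 55423183). Its level was 38.4 CPM in both control mice, 51.5 CPM in mouse 3 and 60.5 CPM in mouse 4. The log2 fold change was 0.54 (SE 0.138, unadjusted p = 0.00405, adjusted p = 0.373 by edgeR's quasi-likelihood test), and it lay between 0.42 and 0.64 when each mouse was left out. In all 12 alternatives to the main processing Sparc was higher at an unadjusted p under 0.05. The 2 glycoproteins of higher abundance differed less. Fn1 (fibronectin) had 1200.0 and 1069 CPM in control mice and 1166 and 1319 CPM in mice 3 and 4 (log2 fold change 0.13, SE 0.159), with mouse 3 between the controls. Ecm1 had between 113.9 and 117.1 CPM in the 4 libraries, with a log2 fold change of 0.031 (SE 0.122), and it had the narrowest error of the members.

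The enzymes and inhibitors of matrix turnover had 4 of 6 members with enough counts, and none had an unadjusted p under 0.05. Mmp14, a membrane-bound collagenase that activates Mmp2, had 16.6 and 17.0 CPM in control mice and 21.1 and 20.1 CPM in mice 3 and 4, without overlap (log2 fold change 0.29, SE 0.140, unadjusted p = 0.0722). Timp3, a matrix-bound inhibitor of metalloproteinases whose exons overlap Syn3 on the other strand, had 20.9 and 22.0 CPM against 25.9 and 25.7 CPM, also without overlap (log2 fold change 0.27, SE 0.132, unadjusted p = 0.0793). Mmp2, the gelatinase of activated stellate cells, had 35 and 47 counts in control mice and 40 and 77 counts in mice 3 and 4, or 2.63, 3.51, 2.79 and 4.09 CPM, and its groups overlapped (log2 fold change 0.17, SE 0.321, unadjusted p = 0.604). Timp2 overlapped as well, with a log2 fold change of 0.11 (SE 0.216).

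Timp1 and Lox, a pair of genes often measured in liver fibrosis, were close to the limit of detection. Timp1, the inducible metalloproteinase inhibitor, had 1 and 2 counts in control mice and 2 and 9 counts in mice 3 and 4. Lox, the enzyme that cross-links collagen, had 2 and 3 counts in control mice and 4 and 10 counts in the others. A count of 0 would allow up to 3 counts, or between 0.159 and 0.226 CPM in these libraries, and mouse 4 alone had more than that for Timp1. Neither gene was tested.

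No growth factor or receptor differed beyond its spread. Tgfb1, the main profibrotic cytokine, had 7.45 and 13.2 CPM in control mice and 11.2 and 10.2 CPM in mice 3 and 4. Both libraries labelled HuR hKO lay between the controls, and the log2 fold change was 0.053 (SE 0.262, unadjusted p = 0.844), with values from -0.31 to 0.53 when each mouse was left out. Pdgfrb, the PDGF receptor of stellate cells and pericytes, had 5.87 and 6.50 CPM against 5.93 and 8.07 CPM (log2 fold change 0.19, SE 0.232, unadjusted p = 0.446). Hgf, the hepatocyte growth factor that stellate cells secrete, had 3.54 and 2.46 CPM against 4.19 and 2.92 CPM (log2 fold change 0.23, SE 0.329, unadjusted p = 0.498). For both genes 1 library labelled HuR hKO fell within the range of the controls. Pdgfra had a log2 fold change of 0.14 (SE 0.252).

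Among the contractile and cytoskeletal genes, control mouse 1 stood apart for Acta2 and Des. Acta2 (chromosome 19, 34241090 to 34255590), alpha-smooth muscle actin, had 20.7 CPM in control mouse 1, 4.48 CPM in control mouse 2, 4.604 CPM in mouse 3 and 9.40 CPM in mouse 4. The highest and the lowest value were both controls. Its log2 fold change was -0.83 (SE 0.598, unadjusted p = 0.204, adjusted p = 0.802 by edgeR's quasi-likelihood test), the largest error of the members, and the sign turned with 1 library: it was 0.65 without control mouse 1 and -1.54 without control mouse 2. Des (desmin, an intermediate filament of stellate and muscle cells) had 8.50 and 4.11 CPM in control mice and 4.88 and 5.36 CPM in mice 3 and 4. The 4 libraries stood in the same order as for Acta2, and its log2 fold change of -0.30 (SE 0.334, unadjusted p = 0.401) was 0.31 without control mouse 1. Tagln, an actin-binding protein of smooth muscle, had 15.5 and 8.74 CPM against 10.9 and 14.7 CPM (log2 fold change 0.08, SE 0.275); its exons overlap those of Pcsk7. Vim (vimentin), which is made by mesenchymal and immune cells alike, had 21.4 and 18.7 CPM against 22.0 and 22.4 CPM, without overlap (log2 fold change 0.15, SE 0.143).

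Some markers of vascular smooth muscle and of bile ducts were high in the same control mouse. Myh11, smooth muscle myosin, had 300 counts in control mouse 1, 44 in control mouse 2, 29 in mouse 3 and 130 in mouse 4. Cnn1 (calponin) had 46, 8, 8 and 16 counts, and Actg2 (enteric actin) had 49, 2, 6 and 28 counts in the same order. Krt19, the keratin of bile duct cells, had 162, 5, 7 and 34 counts, and Muc1, a mucin of duct epithelium, had 143, 6, 17 and 25 counts. These 5 genes and Acta2 all had their highest value in control mouse 1. Of 10 smooth muscle genes tested, 8 had a log2 fold change under 0, the median was -0.51, and 1 (Tpm2, at 0.72) had an unadjusted p under 0.05. Of all genes tested, 50.3% had a log2 fold change above 0, and 4.04% were higher and 3.39% lower at that threshold. The 11 smooth muscle genes together summed to 369 and 321 CPM in control mice and to 312 and 362 CPM in mice 3 and 4. Of 9 cholangiocyte genes tested, 4 had a log2 fold change above 0, and the median was -0.16. At an unadjusted p under 0.05, 2 of the 9 (Krt23 and Spp1) were higher and none was lower. The 14 cholangiocyte genes summed to 90.7 and 54.9 CPM in control mice and to 68.2 and 87.7 CPM in mice 3 and 4. Their part in the values of Acta2 and Des was not tested. Relative to Lrat and per kb, the level of Acta2 was 3.09 in control mouse 1 and between 0.745 and 1.53 in the other 3 libraries.

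**Figure D4:**
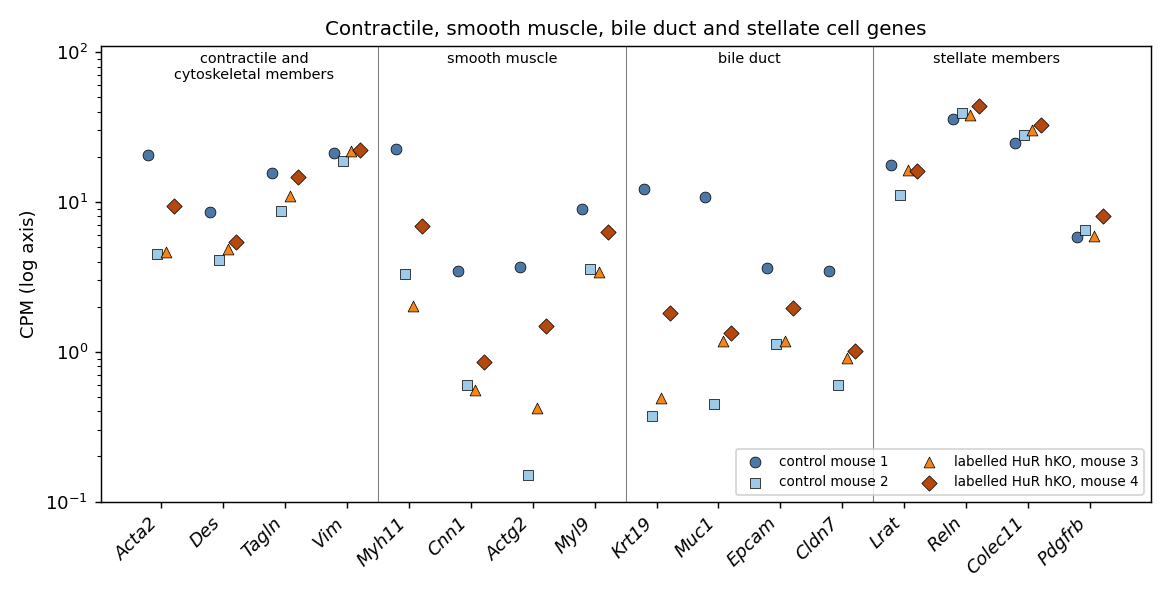
Level in each library of contractile genes, smooth muscle genes, bile duct genes and stellate cell genes, on a log axis, with 1 symbol per library. Control mouse 1 was the highest for Acta2 (20.7 CPM), Myh11 (22.6 CPM), Krt19 (12.2 CPM) and Muc1 (10.8 CPM).

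The 4 markers of the resting stellate cell and of pericytes all had a log2 fold change above 0, with a median of 0.20, and none had an unadjusted p under 0.05. Lrat, which esterifies retinol for storage, had 17.6 and 11.05 CPM in control mice and 16.3 and 16.2 CPM in mice 3 and 4, both between the controls (log2 fold change 0.18, SE 0.219, unadjusted p = 0.436). Reln (reelin) had 36.05 and 39.3 CPM against 38.2 and 43.6 CPM (log2 fold change 0.12, SE 0.138, unadjusted p = 0.414), with mouse 3 between the controls. Colec11, a collectin of stellate cells, had 24.8 and 28.0 CPM against 30.3 and 32.6 CPM and did not overlap (log2 fold change 0.26, SE 0.137, unadjusted p = 0.0979). Rgs5, a marker of pericytes, had 25.1 and 22.0 CPM against 29.0 and 26.4 CPM, again without overlap (log2 fold change 0.23, SE 0.141, unadjusted p = 0.142). The 16 stellate cell genes outside the members summed to 135.2 and 129.3 CPM in control mice, and to 157.7 and 159.3 CPM in mice 3 and 4. Of the 15 tested, 14 had a log2 fold change above 0, beside 50.3% of all genes, and the median was 0.25. An unadjusted p under 0.05 was found for 1 of them (Angptl6, at 0.41), beside 4.04% of all genes in the higher direction.

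Other genes that build or process the matrix were read from lists that did not include the members. In these and later lists, the counts above 0 stand beside 50.3% of all genes. At an unadjusted p under 0.05, 4.04% of all genes were higher and 3.39% were lower. Of 12 further collagen chains tested, 7 had a log2 fold change above 0, with a median of 0.08. For 3 of the 12 both libraries labelled HuR hKO lay above both controls, beside 19.3% of all genes. For 4 they lay below both controls, beside 18.8%. The largest change in size was that of Col20a1, with 15 and 16 counts in control mice and 9 and 8 in mice 3 and 4 (-1.15, SE 0.514). Col5a3 had 71.9 and 61.4 CPM in control mice and 105.4 and 92.9 CPM in mice 3 and 4 (log2 fold change 0.57, SE 0.142, unadjusted p = 0.00356), while Col27a1 had a value of 0.40 (unadjusted p = 0.0177). Among 26 genes for collagen processing and cross-linking, 16 were above 0, the median was 0.15, and 2 had an unadjusted p under 0.05. These were Adamts2, which trims procollagen (0.86, SE 0.314), and Loxl3, a relative of Lox with 17 and 19 counts against 33 and 50 (0.88, SE 0.358). Laminins and other basement membrane genes were above 0 for 13 of 18 tested, with a median of 0.12, and Lamb2 alone had an unadjusted p under 0.05 (0.49, SE 0.193). Other glycoproteins and elastic fibre genes were above 0 for 23 of 30, with a median of 0.26, and Spp1 (osteopontin) was the 1 with an unadjusted p under 0.05 (0.51, SE 0.188). Of 15 other proteoglycans, 8 were above 0, the median was 0.02, and Omd, with 57 and 68 counts against 23 and 65, was lower at -0.86 (unadjusted p = 0.0483). No gene of these lists had an adjusted p under 0.05.

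Proteases and their inhibitors outside the members were above 0 for 17 of 24 genes tested, with a median of 0.28. Mmp12, the elastase of macrophages, differed most: it had 3 counts in each control mouse and 39 and 28 counts in mice 3 and 4 (log2 fold change 3.16, SE 0.601, unadjusted p = 0.000718, adjusted p = 0.161 by edgeR's quasi-likelihood test). Both control libraries were at the limit that a count of 0 allows, so the size of this difference depends on few counts. In the TGF-beta pathway, 16 of 28 genes tested were above 0 and the median was 0.04. Tgfbi, a matrix protein named for its induction by TGF-beta, had 34.7 and 35.1 CPM against 45.8 and 48.6 CPM (log2 fold change 0.44, SE 0.128, unadjusted p = 0.00909), and it was the only 1 of the 28 with an unadjusted p under 0.05. The receptors Tgfbr1 and Tgfbr2 had log2 fold changes of -0.32 (SE 0.204) and -0.25 (SE 0.145), and Smad7, an inhibitor of the pathway, had -0.28 (SE 0.236). Of 11 genes of PDGF and HGF signalling, 6 were above 0, and none had an unadjusted p under 0.05. The largest values were 0.71 for Plau (SE 0.464) and -0.58 for Spint1 (SE 0.613).

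Genes of liver fibrosis that were followed by real-time PCR in mice fed for longer form a list of 12, of which Acta2, Tgfb1 and Mmp2 are described above. In the RNA-seq libraries 10 of the 12 had enough counts, and 7 of the 10 were above 0, beside 50.3% of all genes. At an unadjusted p under 0.05, 1 gene of the list was higher, beside 4.04% of all genes. That gene was S1pr2, a receptor for sphingosine-1-phosphate and bile acids, with 71 and 63 counts in control mice and 125 and 124 counts in mice 3 and 4 (log2 fold change 0.60, SE 0.235, unadjusted p = 0.0336). Ccn2 (connective tissue growth factor) had 9.33 and 5.002 CPM against 9.70 and 12.5 CPM (0.64, SE 0.291, unadjusted p = 0.0590), and Loxl2 had 26 and 37 counts against 52 and 73 (0.67, SE 0.307, unadjusted p = 0.0606). Both were apart between the groups and missed the threshold. Postn (-0.025, SE 0.251), Sox9 (0.11, SE 0.312) and Sox4 (0.34, SE 0.323) had groups that overlapped or errors close to the size of the difference. Krt19, which followed control mouse 1, had -2.38 (SE 1.12, unadjusted p = 0.0663). Mmp7 had 12, 2, 0 and 7 counts and Sctr had 1, 0, 0 and 2 counts in mice 1 to 4, too few to be tested.

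Markers of other cells that make or border the matrix moved in the same direction in part. Of 20 endothelial genes tested, Cldn5 alone (0.50, SE 0.209) had an unadjusted p under 0.05, beside 4.04% of all genes in the higher direction. Of the 20, 19 had a log2 fold change above 0, beside 50.3% of all genes, with a median of 0.21. Their summed level was 608 and 533 CPM in control mice and 680 and 592 CPM in mice 3 and 4, so that the sums overlapped. Kupffer cell and macrophage genes were above 0 for 13 of 19, with a median of 0.14, and Trem2 had 4 and 2 counts in control mice and 12 and 15 in mice 3 and 4 (1.82, SE 0.656, unadjusted p = 0.0237). Erythroid genes, a sign of blood in the tissue, were above 0 for all 5 tested, with a median of 0.52. Their summed level was lowest in control mouse 1 (363 CPM) and highest in mouse 4 (711 CPM), and Hbb-bs, Hbb-bt and Alas2 had an unadjusted p under 0.05, though the near-identical Hbb-bs and Hbb-bt may share reads. Hepatocyte genes were above 0 for 9 of 20, with a median of -0.05. Whether the endothelial and erythroid levels had a part in the values of the matrix genes was not tested.

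**Figure D5:**
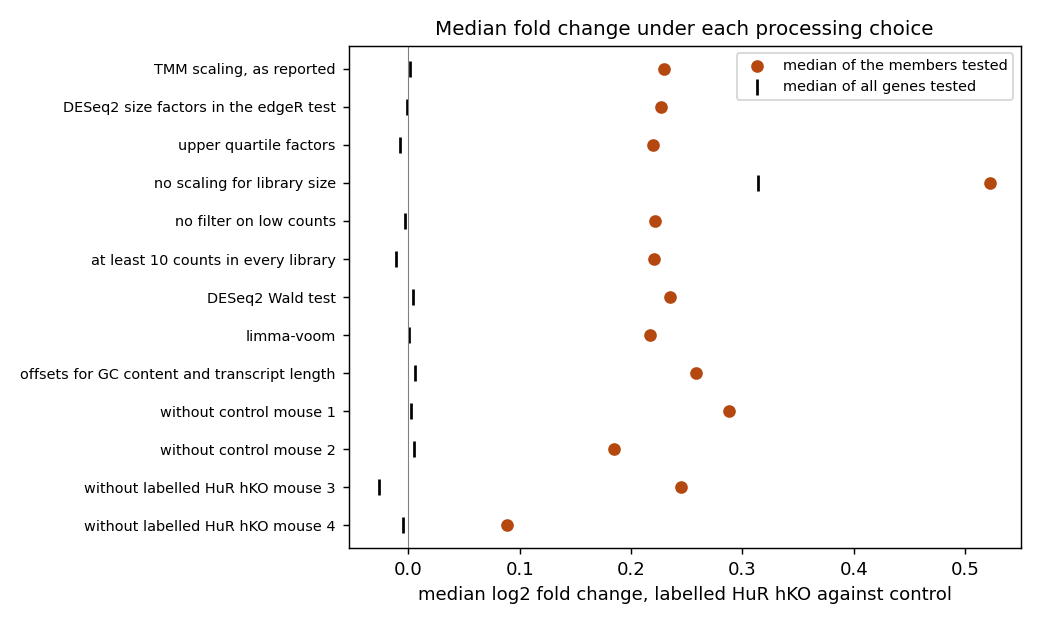
Median log2 fold change of the members tested (circles) and of all genes tested in the same fit (ticks) for the main processing and each of its 12 alternatives. The median of the members was 0.23 in the main fit, 0.09 without mouse 4 and 0.29 without control mouse 1, and without scaling for library size it was 0.52, where the median of all genes was 0.31.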

How the data were processed

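Total RNA from the livers of 4 mice was sequenced with Genewiz's protocols, per the labels. The authors deposited raw counts per Ensembl gene, 1 column per mouse, without normalization, and 0 columns were left without a mouse. The submitters' processing notes name RSEM and GRCm38 without their roles, and the use of strand and the handling of reads shared by several genes are not given in the sources used here. Symbols and coordinates were taken from GENCODE M21 (46005 of 46603 identifiers). Genes were kept by edgeR's filter (10 counts, total of 15), scaled by TMM (factors of 0.957 to 1.04) and compared between the 2 control libraries and the 2 libraries labelled HuR hKO with the quasi-likelihood test of edgeR 4.0.16 (limma 3.58.1, R 4.3.3), adjusted by Benjamini-Hochberg over 13001 genes. CPM use the scaled library sizes. The fits were tested on simulated data. Counts of every pair of libraries differed beyond sampling noise (chi-square per degree of freedom of 23.1 to 36.5). Nothing says how many litters or cages the mice came from, so p-values measure only the spread between these libraries, and count limits cover counting error only.

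The members and gene lists were chosen with earlier results of these data known. Every member was accounted for. Values in every library are given for Elavl1, for 12 members set by name, for members with an unadjusted p under 0.05 or an absolute log2 fold change of at least 0.5, and for some others chosen after their values were seen. From the other lists, genes with an unadjusted p under 0.05 are named, or else the 2 largest changes, with the study's fibrosis genes. Other genes named from the lists, the smooth muscle, bile duct and TGF-beta receptor genes among them, were chosen after their values were seen. The alternatives were DESeq2's size factors, upper quartile factors, no scaling, no filter, 10 counts in every library, the DESeq2 1.42.0 Wald test, limma-voom, offsets for GC content and transcript length (known for 99.6% of genes tested) and leaving out each mouse. Tables and figures were made in python 3.11.15 with pandas 2.3.3 and matplotlib 3.10.9.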

Additional observations from a re-analysis of the deposited data

How the results depend on the processing

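The count of members higher at an unadjusted p under 0.05 was 6 in the main fit, beside 4.04% of all genes. The same 6 genes were found in 5 of the 8 alternative fits on all libraries. The share of all genes was 3.95% with DESeq2's size factors, 3.69% with upper quartile factors and 3.88% with 10 counts in every library. It was 4.07% with limma-voom, and 1.47% in the DESeq2 Wald test, which covered 21432 genes and 37 members. The count of members was 7 without a filter (3.28% of all genes in that fit) and 13 without scaling for library size (10.1%). With offsets for GC content and length it was 10 (4.43%). Without scaling, the median was 0.52, beside 0.31 over all genes, and Col5a1 (0.27) and Des (0.025) turned above 0. In that fit 1 member (Col1a1) had an adjusted p under 0.05. The fit leaves the larger total of mouse 4 uncorrected, and the share of all genes at that threshold was not counted. No result about Col1a1 is drawn from that call. Among the fits on all libraries, 1 member (Acta2) was lower at an unadjusted p under 0.05, in the fit without a filter. The share of all genes lower in that fit was not counted, so no result about Acta2 is drawn from that call. Col6a2 turned to -0.0037 without a filter, -0.0013 with 10 counts in every library and -0.00043 in the DESeq2 Wald test, and with the offsets Ecm1 turned to -0.053 and Tagln to -0.0014. When each mouse was left out, by an edgeR fit that takes the lone library to vary like the pair, the median lay between 0.09 and 0.29. With 1 library against 2, members with groups apart numbered between 17 and 27 in the higher direction, where the share of all genes was between 32.8% and 36.7%, and between 0 and 5 in the lower, where it was between 32% and 36.9%. Without scaling they numbered 22 and 0, beside 44.8% and 2.37% of all genes. They were not recounted for DESeq2, limma-voom or the offsets. Leaving out 1 mouse turned the direction of Col5a1 (-0.22 to 0.13), Mmp2 (-0.14 to 0.40), Tgfb1 (-0.31 to 0.53), Des (-0.73 to 0.31), Acta2 (-1.54 to 0.65), Col6a1 (-0.028 to 0.29), Col6a2 (-0.28 to 0.22), Hgf (-0.056 to 0.50), Tagln (-0.27 to 0.54), Lrat (-0.12 to 0.54), Col15a1 (-0.058 to 0.70), Lum (-0.25 to 0.63), Timp2 (-0.24 to 0.36) and Pdgfrb (-0.059 to 0.37). The cause of these changes was not tested. Over all 12 alternatives, 15 members turned direction at least once and 20 did not. No paired analysis was possible because the mouse numbers of the groups are all different. Depth limited Timp1 and Lox, which had at most 10 counts in a library.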

Other observations

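Fibroblasts of the portal tract and cells of the liver capsule also make collagen. Among their markers, Gas1 had 19.8 and 20.2 CPM in control mice and 17.7 and 23.6 CPM in mice 3 and 4 (log2 fold change 0.054, SE 0.170). All 17 genes of this list together summed to 45.8 and 48.1 CPM in control mice and to 43.0 and 62.4 CPM in mice 3 and 4. Of 17 such genes, 12 had enough counts, 8 of them had a log2 fold change above 0, and none had an unadjusted p under 0.05, with a median of 0.35. Dpt (dermatopontin) had 3.46 and 5.52 CPM in control mice and 4.26 and 10.3 CPM in mice 3 and 4, labelled HuR hKO (log2 fold change 0.71, SE 0.415). Clec3b (tetranectin) had 10 and 5 counts in control mice and 5 and 24 counts in mice 3 and 4 (0.57, SE 0.721). Both had their highest value in mouse 4, as Col1a1, Col1a2 and Lum did.

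Lymphocyte genes were above 0 for 6 of 8 tested, with a median of 0.24 and none with an unadjusted p under 0.05. Cd3e, a chain of the T cell receptor complex, had 4 and 5 counts in control mice and 11 and 15 counts in mice 3 and 4 (log2 fold change 1.19, SE 0.588). Of 12 neutrophil genes, Csf3r alone had enough counts to be tested (-0.71, SE 0.425), and 2 were at 0 in every library. Krt23, a keratin listed with the cholangiocyte genes, had 66 and 95 counts in control mice, 105 in mouse 3 and 330 in mouse 4 (1.06, SE 0.386, unadjusted p = 0.0253). It was lowest in control mouse 1, the library in which Krt19 and Muc1 were highest. Hp (haptoglobin) was the 1 hepatocyte gene of 20 with an unadjusted p under 0.05 (0.43, SE 0.167).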
